A study of Mus musculus with 18 samples.

Results

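The genes described here are 10 genes of glucose uptake and glycolysis: the glucose transporter Slc2a1 and the enzymes Hk1, Hk2, Gpi1, Pfkl, Pfkp, Aldoa, Pgk1, Pkm and Ldha. They were chosen by name and found through the mRNA accession of each probe in RefSeq, and all 10 were on the array, among 34304 distinct gene names. Gpi1, Hk1 and Ldha had 2 probes each and the others 1. Expression was measured in unirradiated mouse embryonic stem cells (ES), in isogenic non-stem cells differentiated from them (ED), and in both after 10 Gy of ionizing radiation (IR), with RNA taken at 15 min (the groups ESRE and EDRE) or at 4 h (the groups ESRL and EDRL), with 3 samples per group and 1 Agilent one-color array per sample. ES cells were early passage, wild type and grown without feeder cells in medium with leukemia inhibitory factor (LIF). ED cells were obtained by undirected differentiation in medium without LIF and, by the published methods, without beta-mercaptoethanol, so medium and cell state changed together. The exact time of differentiation of each sample was not known. Samples were said to be triplicates, without a statement that they came from separate cultures, so p-values measure the spread between these samples only, which may be technical.

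Glycolysis converts glucose into pyruvate and yields ATP without oxygen. Glucose enters through facilitative carriers, is trapped as glucose 6-phosphate by hexokinases, is committed to the pathway by phosphofructokinase, and its carbon leaves as pyruvate, which lactate dehydrogenase can reduce to lactate. Most steps have several isoenzymes encoded by separate genes, and cell types differ in which they use. Pluripotent stem cells are known for a high rate of glycolysis, and many of these genes are classical targets of the hypoxia-inducible factors (HIF) and of Myc.

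Values are log2 signals minus the log2 of each array's own 75th percentile, so a value of 0 equals that percentile, and levels are compared between groups within a probe, never between genes. A gene was called changed where the Benjamini-Hochberg adjusted p of limma over all probes tested was under 0.05 and the log2 difference was over 1 in size. Where a gene had several probes, the brightest was used and the other is given beside it. All probes of the 10 genes were well above background on all 18 arrays, and no spot was saturated. The scanner software marked many of their spots as outliers, however, and these were left out: Hk2 kept a usable spot on 4 arrays, Pgk1 on 6 and Pkm on 11, so values with outlier spots kept are given for these genes. Replicates 2 and 3 of EDRE were dim, with a 75th percentile of 875 and 1155 against 1952 to 4268 on the other arrays and with 24.4% and 23.8% of spots marked as outliers, and on them Slc2a1, Gpi1 and Pfkl had no usable spot. Values of EDRE are therefore given with and without these arrays.

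The labels were checked against marker genes. All 8 stem cell markers, Pou5f1, Nanog and Sox2 among them, passed the background filter on every ES array, and their summed level was 8.84 to 9.46 in the ES groups against 2.33 to 3.54 in the ED groups. Detection alone did not separate the labels, since 6 of the 8 also passed on all 3 arrays of ED and of EDRL. Sox2 was well above background on all ED arrays, with means of 2.32 in ED, 3.09 in EDRE and 2.52 in EDRL against 4.68 in ES. For the 7 fibroblast or mesenchymal markers the summed level was 4.80 to 5.23 in the ES groups and 8.63 to 9.05 in the ED groups, though 1 of them, Thy1, went the other way, with a mean of 1.23 in ES and no ED array well above background. For the 4 epithelial markers the summed level was 7.30 to 7.57 and -2.73 to -1.80. The 4 neural markers ran from 2.11 to 2.78 and from 2.59 to 3.87, the 5 endoderm markers from -0.14 to 1.51 and from -0.21 to 0.23, and the 5 muscle markers from -0.06 to 0.89 and from -2.26 to -1.42. Of 4 blood markers 3 were on the array, with a summed level from -5.23 to -3.39 and from -2.74 to -0.54. In such bulk samples fewer cells of a type and less RNA per cell cannot be told apart, and the part of these cell-type differences in the results below was not tested.

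The start regions of 4 of the genes are printed first, for the 3 genes lower in ED cells in the results below (Slc2a1, Hk2 and Pfkl) and for Ldha, which was not called and whose window held the most matches to the motifs searched. Each window runs from 250 bases before to 50 bases after an annotated start in RefSeq (GRCm38.p6), read 5′ to 3′ on the strand of the gene. Capitals mark ACGTG, the core of the HIF response element, on either strand (CACGT on the other strand), and where the matches overlap they form the E-box CACGTG, a site recognized by Myc and related factors. A match is a description of letters only.
Slc2a1, chr4:119108495-119108794, + strand: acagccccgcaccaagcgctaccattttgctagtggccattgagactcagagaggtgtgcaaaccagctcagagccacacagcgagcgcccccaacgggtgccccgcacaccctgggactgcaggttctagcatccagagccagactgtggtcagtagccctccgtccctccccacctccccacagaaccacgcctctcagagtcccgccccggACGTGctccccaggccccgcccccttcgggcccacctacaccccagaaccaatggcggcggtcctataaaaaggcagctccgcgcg
Hk2, chr6:82774405-82774704, - strand: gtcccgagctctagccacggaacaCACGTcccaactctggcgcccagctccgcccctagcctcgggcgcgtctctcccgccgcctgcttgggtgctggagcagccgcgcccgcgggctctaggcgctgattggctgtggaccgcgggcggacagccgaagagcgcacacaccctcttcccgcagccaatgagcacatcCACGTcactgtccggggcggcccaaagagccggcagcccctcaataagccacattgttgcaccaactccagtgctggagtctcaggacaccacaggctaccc
Pfkl, chr10:78009758-78010057, - strand: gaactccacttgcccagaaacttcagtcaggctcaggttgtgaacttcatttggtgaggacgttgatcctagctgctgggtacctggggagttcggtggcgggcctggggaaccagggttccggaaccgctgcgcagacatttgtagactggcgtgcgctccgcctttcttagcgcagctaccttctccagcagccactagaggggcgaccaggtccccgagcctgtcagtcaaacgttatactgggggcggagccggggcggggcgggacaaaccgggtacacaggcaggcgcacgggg
Ldha, chr7:46845554-46845853, + strand: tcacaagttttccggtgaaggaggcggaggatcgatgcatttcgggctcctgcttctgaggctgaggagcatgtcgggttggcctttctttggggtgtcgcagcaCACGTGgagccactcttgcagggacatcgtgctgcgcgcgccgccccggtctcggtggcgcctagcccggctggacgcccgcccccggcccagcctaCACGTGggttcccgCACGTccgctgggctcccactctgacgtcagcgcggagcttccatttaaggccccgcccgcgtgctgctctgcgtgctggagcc
Of the 32851 windows of all genes, 19.6% held ACGTG on either strand and 7.15% held CACGTG. Of the 15 windows of the 10 genes, some of which overlap, 8 held ACGTG, in 7 of the genes, and 1 held CACGTG. That window, of Ldha, had 5 matches to ACGTG, 4 of them within its 2 E-boxes. The window of Slc2a1 had 1 match and that of Hk2 had 2, while Pfkl, Gpi1 and Pfkp had 0.

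Without IR, the glucose transporter Slc2a1 and the phosphofructokinase Pfkl were called lower in ED against ES, 2 of the 9 genes that could be tested, and none was called higher. The hexokinase Hk2 was lower too where outlier spots were kept, 3 of 10. The calls of Pfkl and Hk2 were lost with another scale of the arrays and with scan time as a block, and that of Slc2a1 was lost on the other scale, as given below. Many genes differed between these cell types: 26.6% of all probes tested were called lower and 15.1% higher in ED against ES, and 26.2% lower with outlier spots kept, so the share called among the 10 genes was near that of all probes. The median difference of the 9 genes was -0.15, against -0.19 over all probes tested. At 15 min after IR, EDRE against ESRE gave 2 of 7 lower and 1 of 7 higher, where 27.7% and 18.8% of all probes were called. With outlier spots kept 3 of 10 were lower, against 29.3% of all probes, and 2 of 10 were higher, Hk1 and Pgk1. At 4 h, EDRL against ESRL gave 2 of 9 lower and 0 of 9 higher, against 24.9% and 24.1%, and 3 of 10 lower with outlier spots kept, against 24.3%.

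**Figure D1:**
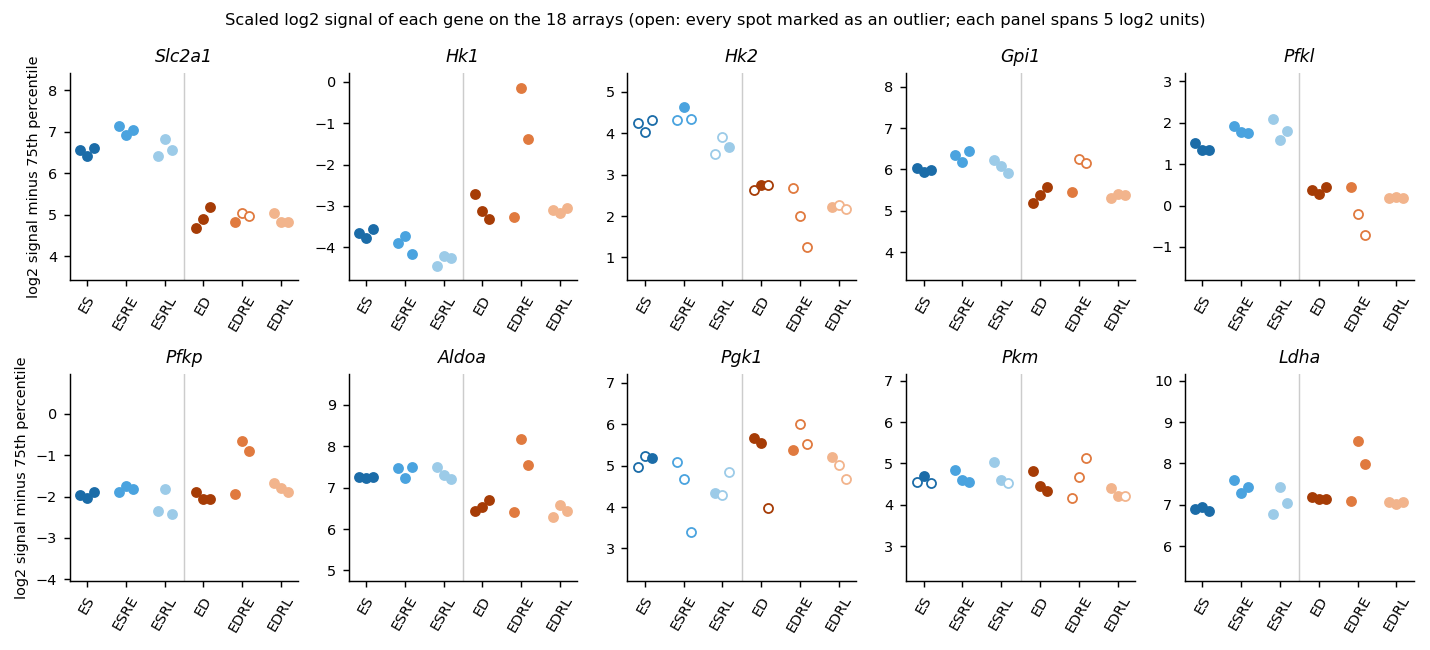
Scaled log2 signal (y axis, with each array's 75th percentile at 0) of the brightest probe of each of the 10 genes in the 6 groups (x axis), 1 point per array, with open points where every spot was marked as an outlier. Slc2a1, Hk2 and Pfkl lie lower on all ED arrays than on all ES arrays, and in Hk1, Pfkp, Aldoa and Ldha replicates 2 and 3 of EDRE stand above replicate 1.

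Slc2a1 encodes GLUT1, the carrier for basal glucose uptake in many cell types. Its values were 6.56, 6.42 and 6.61 in ES, 7.15, 6.93 and 7.05 in ESRE, and 6.42, 6.83 and 6.55 in ESRL. In ED they were 4.68, 4.90 and 5.18, in EDRL 5.05, 4.83 and 4.81, and on the usable EDRE array 4.83. No ED array reached the level of any ES array, while the means of ED and EDRL, 4.92 ± 0.25 and 4.90 ± 0.13 (SD, n = 3), differed by less than the spread of single arrays. The level in ED was lower than in ES, at -1.61 ± 0.17 (SE) on the log2 scale, or 3.05-fold (adjusted p = 3.52e-06). The difference of EDRE from ESRE was -2.21 ± 0.23 (adjusted p = 3.05e-06) and that of EDRL from ESRL was -1.70 ± 0.17 (adjusted p = 1.35e-06). With outlier spots kept, EDRE read 4.83, 5.05 and 4.96, and the difference at 15 min was -2.10 ± 0.17 (adjusted p = 3.34e-08).

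Hexokinases phosphorylate glucose and so trap it in the cell. Hk1 encodes a widely expressed form and Hk2 a form found in insulin-sensitive tissues and many growing cells. With outlier spots kept, Hk2 had 4.25, 4.02 and 4.31 in ES, 4.31, 4.64 and 4.35 in ESRE, and 3.51, 3.90 and 3.66 in ESRL. It had 2.63, 2.75 and 2.75 in ED, 2.69, 1.99 and 1.26 in EDRE, and 2.23, 2.26 and 2.16 in EDRL. All 9 ED arrays lay below all 9 ES arrays. The differences of Hk2 were -1.48 ± 0.27 in ED against ES (2.79-fold lower, adjusted p = 0.000247), -2.45 ± 0.26 in EDRE against ESRE (adjusted p = 8.09e-07) and -1.47 ± 0.27 in EDRL against ESRL (adjusted p = 0.000194). Without EDRE replicates 2 and 3 the value at 15 min was -1.74 ± 0.20 (adjusted p = 8.91e-06). The 4 spots of Hk2 not marked as outliers read 4.64 (ESRE), 3.66 (ESRL), 2.75 (ED) and 2.23 (EDRL).

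Hk1 had -3.65, -3.78 and -3.56 in ES and -2.72, -3.12 and -3.32 in ED with its brighter probe. It had -4.44, -4.20 and -4.25 in ESRL and -3.09, -3.18 and -3.04 in EDRL. The ED arrays lay above the ES arrays both times, but the difference of 0.61 ± 0.51 in ED against ES did not pass the test (adjusted p = 0.352), nor did that of 1.20 ± 0.50 in EDRL against ESRL (adjusted p = 0.052). The latter passed both limits in 12 of 37 alternatives. Among these were the median scale (1.68, adjusted p = 0.00457), scan time as a random block (2.36, adjusted p = 0.026), a fit of only the arrays compared (adjusted p = 0.000867), and fits without replicate 1 or 2 of EDRE, arrays outside that comparison (adjusted p = 0.000868 and adjusted p = 0.00706). In EDRE against ESRE Hk1 was called higher, by 2.32 ± 0.50 (adjusted p = 0.00111), with EDRE at -3.27, -0.15 and -1.39 and ESRE at -3.89, -3.72 and -4.15. Without the dim EDRE arrays this difference was 0.65 ± 0.23 (adjusted p = 0.0371) and missed the fold limit. The other probe of Hk1, for another transcript, gave 0.76 ± 0.29 (adjusted p = 0.0431) without IR and 0.99 ± 0.29 (adjusted p = 0.00898) at 4 h. At 15 min it gave 1.19 ± 0.32 (adjusted p = 0.00623), and 0.67 ± 0.34 (adjusted p = 0.14) without the dim arrays.

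Gpi1 encodes glucose-6-phosphate isomerase, which makes fructose 6-phosphate. Its bright probe, spotted 10 times per array, had 6.06, 5.94 and 5.99 in ES and 5.20, 5.38 and 5.58 in ED. The ED arrays lay below the ES arrays, but the difference of -0.61 ± 0.15 (adjusted p = 0.00365) was under the fold limit. It was -0.87 ± 0.20 (adjusted p = 0.00268) at 15 min, with 1 EDRE array, and -0.71 ± 0.15 (adjusted p = 0.000945) at 4 h. With outlier spots kept, EDRE read 5.46, 6.26 and 6.15, and the difference at 15 min was -0.37 ± 0.20 (adjusted p = 0.12). A second probe, with a single spot, gave -1.28 ± 0.25 (adjusted p = 0.00045), -1.79 ± 0.24 (adjusted p = 1.53e-05) and -0.75 ± 0.24 (adjusted p = 0.0155) without IR, at 15 min and at 4 h. Its value at 15 min was -1.09 ± 0.23 (adjusted p = 0.00165) without the dim arrays. The probes of Gpi1 thus shared a direction and differed in size, and by the second probe Gpi1 passed both limits without IR and at 15 min.

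Phosphofructokinase catalyzes the committed step, and Pfkl and Pfkp encode its liver and platelet forms. Pfkl had 1.50, 1.35 and 1.35 in ES, 1.91, 1.77 and 1.75 in ESRE, and 2.09, 1.59 and 1.79 in ESRL. It had 0.38, 0.27 and 0.45 in ED, 0.45 on the usable EDRE array, and 0.19, 0.20 and 0.18 in EDRL, below every ES array. The difference was -1.03 ± 0.15 in ED against ES (2.04-fold lower, adjusted p = 6.54e-05), -1.36 ± 0.20 in EDRE against ESRE (adjusted p = 8.21e-05) and -1.63 ± 0.15 in EDRL against ESRL (adjusted p = 5.59e-07). The first stood just beyond the fold limit and was under it, at -0.98, without replicate 1 of ES and, at -0.98, without replicate 2 of ED. Pfkp had -1.97, -2.04 and -1.89 in ES and -1.89, -2.07 and -2.05 in ED, which overlapped, with a difference of -0.04 ± 0.26 (adjusted p = 0.931). At 15 min it gave 0.65 ± 0.26 (adjusted p = 0.0415), and -0.12 ± 0.22 (adjusted p = 0.707) without the dim EDRE arrays.

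Aldoa encodes the aldolase of muscle and many other cells, which splits fructose 1,6-bisphosphate. It had 7.26, 7.24 and 7.26 in ES and 6.44, 6.54 and 6.71 in ED, without overlap. The difference of -0.69 ± 0.31 did not pass the test (adjusted p = 0.0738). In EDRL against ESRL it was -0.90 ± 0.30 (adjusted p = 0.0186), under the fold limit. In EDRE the arrays read 6.41, 8.18 and 7.55, and EDRE against ESRE gave -0.02 ± 0.30 (adjusted p = 0.956) with the dim arrays and -0.99 ± 0.19 (adjusted p = 0.00069) without them. All 6 groups share 1 estimate of the spread, and the SD of Aldoa was 0.01 in ES, 0.14 in ED and 0.89 in EDRE.

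The later steps were represented by Pgk1, which makes ATP from 1,3-bisphosphoglycerate, by Pkm, which makes pyruvate and ATP, and by Ldha, which makes lactate. Pgk1 differed by 0.42 ± 0.33 in ED against ES (adjusted p = 0.399) over its few usable spots and by -0.07 ± 0.44 (adjusted p = 0.918) with all spots. With outlier spots kept its values ranged from 3.41 to 6.01. Its difference of 1.25 ± 0.43 in EDRE against ESRE (adjusted p = 0.0215) then passed both limits, and was 0.98, under the fold limit, without the dim arrays. Pkm differed by -0.15 ± 0.29 in ED against ES (adjusted p = 0.721) and by -0.04 ± 0.23 (adjusted p = 0.91) with all spots. Ldha had 6.90, 6.94 and 6.85 in ES and 7.20, 7.13 and 7.15 in ED. Its groups did not overlap, and its difference of 0.26 ± 0.27 (adjusted p = 0.466) did not pass the test. The second probe of Ldha gave 0.21 ± 0.20 (adjusted p = 0.433).

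Of the 7 genes measured on all 6 arrays of ED and ES, 6 had groups that did not overlap, where 71.2% of all such probes did not. In EDRE against ESRE this held for 1 of 4 (57.6% of all probes) and in EDRL against ESRL for 5 of 7 (68.2%).

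**Figure D2:**
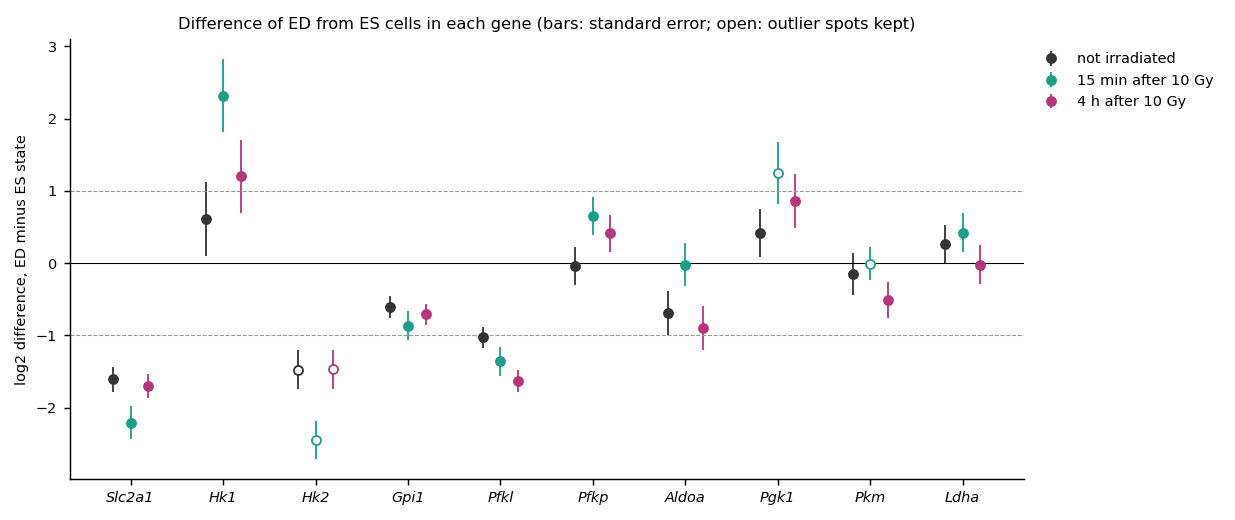
Log2 difference of ED from ES cells (y axis) in each gene (x axis), without IR and at 15 min and 4 h after 10 Gy, with bars of 1 SE and open points where outlier spots were kept. Slc2a1, Hk2 and Pfkl lie below the dashed line at -1 in all 3 states, and Hk1 at 15 min is at 2.32.

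The sizes depend on how the arrays are put on 1 scale. When each array was set to its median in place of its 75th percentile, the median difference of all probes in ED against ES moved from -0.19 to 0.46, and the calls over all probes moved from 4324 higher and 7609 lower to 7674 higher and 5310 lower. They moved from 4613 higher and 6786 lower to 8999 and 4420 in EDRE against ESRE, and from 6369 and 6564 to 9524 and 5022 in EDRL against ESRL. In ED against ES on that scale Slc2a1 gave -0.97 (adjusted p = 0.000357), just under the fold limit, Pfkl gave -0.39 (adjusted p = 0.143) and Hk1 gave 1.25 (adjusted p = 0.0305). Gpi1 had the opposite sign, at 0.03 (adjusted p = 0.902), and Aldoa gave -0.05 (adjusted p = 0.9). Hk2 with outlier spots kept gave -0.83 (adjusted p = 0.0287). At 15 min Pfkl gave -0.46 on the median scale (adjusted p = 0.201), and at 4 h -1.15 (adjusted p = 0.000372). On that scale Pfkp (1.37, adjusted p = 3.36e-05) and Ldha (1.14, adjusted p = 0.000331) were called higher at 15 min, Hk1 was called higher at 4 h, and Hk2 with outlier spots kept was just under the fold limit at 4 h (-0.99, adjusted p = 0.00872). No scan time held both groups of a comparison, so values within a scan time could not be had, and scan time and group cannot be told apart. With scan time as a random block, ED against ES gave -1.68 for Slc2a1 (adjusted p = 0.0201), -0.90 for Pfkl (adjusted p = 0.0918) and, with outlier spots kept, -1.48 for Hk2 (adjusted p = 0.0918). At 4 h the block gave -1.70 for Slc2a1 (adjusted p = 0.00938), -1.62 for Pfkl (adjusted p = 0.00194) and -1.88 for Hk2 (adjusted p = 0.00537).

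**Figure D3:**
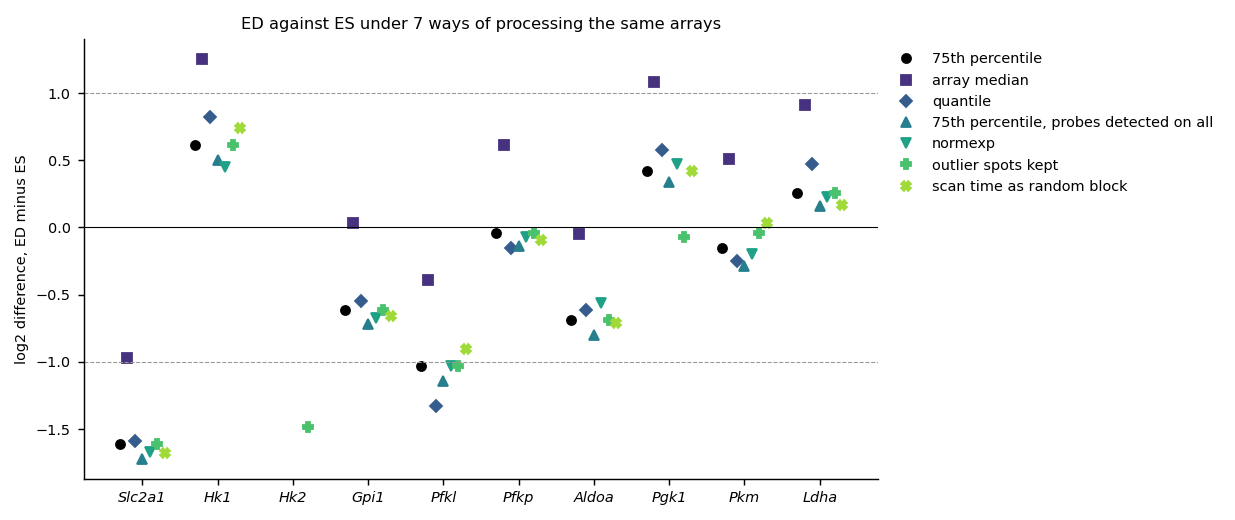
Log2 difference of ED from ES (y axis) for each gene (x axis) under 7 ways of processing the same arrays, 1 symbol per way. With each array set to its median, Slc2a1 lies at -0.97 and Pfkl at -0.39, against -1.61 and -1.03 with the 75th percentile.

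Other isoenzymes of the same steps were also compared. Of 17 other glycolytic enzymes tested, 5 were lower and 1 was higher in ED against ES, with a median of -0.17 against -0.19 for all probes. The lower ones were Pgam2, the muscle form of phosphoglycerate mutase (-5.31 ± 0.35, adjusted p = 6.27e-09), Hkdc1, which encodes a hexokinase domain protein (-4.96 ± 0.21, adjusted p = 5.63e-11), the brain aldolase Aldoc (-4.84 ± 0.30), the lactate dehydrogenase subunit Ldhb (-4.47 ± 0.14, adjusted p = 2.78e-11) and Bpgm (-1.90 ± 0.24), which was well above background on 1 of 3 ED arrays. Eno3, the muscle enolase, was higher (3.43 ± 0.48, adjusted p = 0.000122) with 1 usable ES array, and gave 3.38 (adjusted p = 1.68e-06) with outlier spots kept. Ldhb had 5.62, 5.51 and 5.57 in ES and 1.16, 1.03 and 1.11 in ED. Among the widely expressed forms, Gapdh gave -0.17 ± 0.32 (adjusted p = 0.705), Eno1 -0.17 ± 0.16 (adjusted p = 0.405), Pgam1 -0.17 ± 0.29 (adjusted p = 0.676) and Tpi1 0.63 ± 0.58 (adjusted p = 0.406). Pfkm, the muscle phosphofructokinase, gave -0.62 ± 0.17 (adjusted p = 0.00748), under the fold limit. At 15 min after IR 5 of 15 were lower and 1 higher in EDRE against ESRE, and in EDRL against ESRL 5 of 16 were lower and 4 higher.

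Of 10 other hexose and lactate carriers tested, 5 were lower and 1 was higher in ED against ES, with a median of -1.24. Slc2a3, which encodes the high-affinity glucose carrier GLUT3, had 7.07, 7.03 and 6.92 in ES and -4.69, -4.41 and -4.57 in ED. The difference of Slc2a3 was -11.56 ± 0.30 (adjusted p = 5.64e-13), and its arrays of ED were still well above background. At 15 min and 4 h it was -11.49 ± 0.30 (adjusted p = 2.65e-13) and -11.65 ± 0.30 (adjusted p = 2.92e-13). The fructose carrier Slc2a5 was not well above background in ED and was at least 13.8-fold lower there (adjusted p = 4.67e-06). Slc2a12 (-3.62 ± 0.15), Slc2a8 (-2.05 ± 0.27) and the lactate exporter Slc16a3 (-1.42 ± 0.48, adjusted p = 0.0229) were lower, and Slc2a6 was higher (1.09 ± 0.21). The call of Slc16a3 was lost on the median scale, at -0.77 (adjusted p = 0.165). Of 8 carriers tested in EDRE against ESRE 4 were lower and 1 higher, and in EDRL against ESRL 5 of 10 were lower and 2 higher.

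Of 17 genes that regulate flux or carry pyruvate into the mitochondrion, 4 were lower and 2 higher in ED against ES, with a median of -0.31. Pdp1, which encodes a phosphatase that activates pyruvate dehydrogenase, was higher (2.35 ± 0.16, adjusted p = 4.72e-08), and Pfkfb1 was lower (-1.93 ± 0.16, adjusted p = 3.53e-07). Pdk1, a kinase that opposes Pdp1, gave -0.31 ± 0.30 (adjusted p = 0.43). Pfkfb3, whose product activates phosphofructokinase, gave -0.40 ± 0.34 (adjusted p = 0.368) without IR and -1.20 ± 0.34 at 4 h (adjusted p = 0.00817, and adjusted p = 0.0675 with outlier spots kept). Pfkfb3 read -0.90, -1.21 and -0.60 in ES, 0.90, 0.74 and 0.66 in ESRE, and 0.78, 0.28 and -0.47 in ESRL. It read -1.93, -1.24 and -0.76 in ED and -1.36, -0.99 and -0.66 in EDRL. In ESRE and in ESRL against ES 0 of 17 genes of this list were called, Pfkfb3 included. Its ESRE and ESRL arrays all lay above its ES arrays, with means of 0.77 and 0.20 against -0.91. The paper lists Pfkfb3 among the mRNAs altered in stem cells at both times after radiation. Its figure counts changes over 2-fold, a limit unlike the calls used here. Pdhb, a pyruvate dehydrogenase subunit, gave -3.10 ± 0.48 in EDRE against ESRE (adjusted p = 5.58e-05), and -1.40 (adjusted p = 0.000599) without the dim arrays. Dlat, another subunit, gave -2.50 ± 0.56 in EDRL against ESRL (adjusted p = 0.00137), with 1 of 3 EDRL arrays well above background, and its call was lost with scan time as a random block (adjusted p = 0.2). The counts were 7 of 17 lower and 2 higher in EDRE against ESRE, and in EDRL against ESRL 5 of 17 were lower and 2 higher. On the median scale the list gave 4 higher and 2 lower in ED against ES, 6 and 2 at 15 min, and 5 and 3 at 4 h, and with scan time as a random block 1 higher and 2 lower, 1 and 4, and 2 and 3.

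Of 6 gluconeogenesis genes 2 were lower in ED: Fbp1, a fructose bisphosphatase, was not well above background in ED and was at least 82.2-fold lower (adjusted p = 5.53e-07, with 1 usable ES array, and adjusted p = 6.19e-10 with outlier spots kept), and Pck1 gave -1.86 ± 0.42 (adjusted p = 0.00162). For this list 3 of 7 were lower and 1 higher at 15 min, and 1 of 6 lower and 2 higher at 4 h. With scan time as a random block 1 gene of this list was lower and 0 higher in each of the 3 comparisons. Of 6 genes of the pentose phosphate pathway, which branches off at glucose 6-phosphate, 3 were higher in ED against ES and 0 lower, with a median of 0.97. These were Rpia (1.35 ± 0.21, adjusted p = 0.000151), Pgls (1.24 ± 0.25, adjusted p = 0.00124) and H6pd (1.05 ± 0.25, adjusted p = 0.00225). In EDRE against ESRE 4 of 7 were higher, H6pd by 1.65 ± 0.24 (adjusted p = 3.42e-05), and 2 of 7 without the dim arrays. In EDRL against ESRL 0 of 7 were called, and 3 of 7 were higher on the median scale.

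Among 10 transcriptional regulators 3 were higher and 3 lower in ED against ES. Hif1a was higher, with 3.89, 3.71 and 3.78 in ES and 4.93, 4.97 and 4.96 in ED (1.16 ± 0.17, adjusted p = 7.7e-05), as was Ppargc1a (4.81 ± 0.65), with 2 of 3 ES arrays well above background. Epas1, which encodes HIF-2 alpha, was lower (-3.17 ± 0.23, adjusted p = 7.92e-08), as was Esrrb, a nuclear receptor of pluripotent cells (-7.62 ± 0.19, adjusted p = 3.35e-13). Mycn was called lower too (adjusted p = 7.41e-08 with 1 usable ES array, and adjusted p = 1.55e-11 with outlier spots kept), but 2 of its 3 ED arrays were not well above background, so the size of its difference was not measured. Myc could not be tested with outlier spots left out, and with these kept it gave 2.39 (adjusted p = 4.15e-06). At 15 min 2 of 9 regulators were higher and 3 lower, and at 4 h 4 of 11 were higher and 4 lower. Of 13 HIF targets outside glycolysis 5 were higher and 1 lower in ED against ES, with a median of 0.56. Adm, which encodes the peptide adrenomedullin, was higher (3.96 ± 0.21, adjusted p = 1.04e-08), and Car9, a carbonic anhydrase, was not well above background in ES and was at least 4.13-fold higher in ED (adjusted p = 0.000219). Vegfa, Ero1a and Egln1 were higher and Kdm3a was lower. In EDRE against ESRE 5 of 12 were higher and 0 lower, and in EDRL against ESRL 6 of 13 were higher and 0 lower. With scan time as a random block 2 of 13 HIF targets, 2 of 6 pentose phosphate genes and 0 of 10 carriers were called higher in ED against ES, 4 of 17 other glycolytic enzymes and 3 of 10 carriers lower, and the call of Hif1a was lost (1.03, adjusted p = 0.127). The block left 3 of 8 carriers lower and 2 of 7 pentose phosphate genes higher at 15 min, and at 4 h 4 of 10 carriers lower and 1 higher, 2 of 16 other glycolytic enzymes higher and 4 of 13 HIF targets higher.

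**Figure D4:**
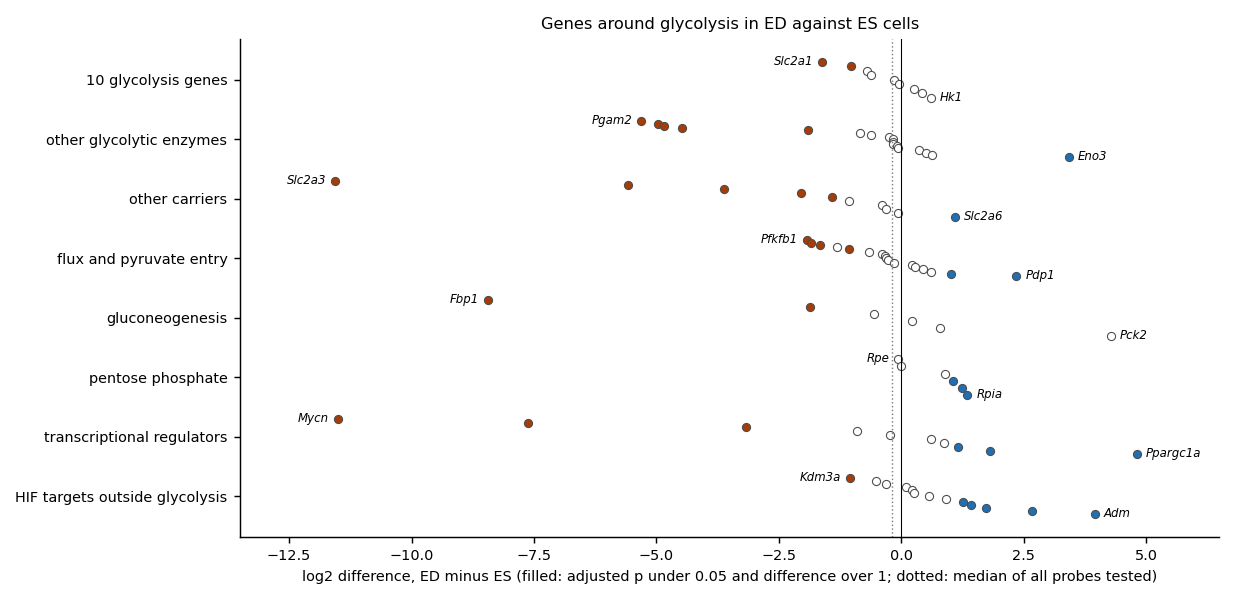
Log2 difference of ED from ES (x axis) for each gene tested among the 10 glycolysis genes and in 7 lists around them (y axis), with filled points for genes called and the outermost genes named. The 9 glycolysis genes that could be tested lie between -1.61 and 0.61 and Slc2a3 at -11.56. Hk2, without a usable ES spot, is not drawn. Mycn is drawn at its fitted value, though 2 of its 3 ED arrays were not well above background.

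After IR none of the 10 genes was called. In ESRE against ES this was 0 of 8, where 0.463% of all probes were called, in ESRL against ES 0 of 9 (7.03%), in EDRE against ED 0 of 8 (4.85%) and in EDRL against ED 0 of 9 (1.61%). At an unadjusted p under 0.05 and without the fold limit, limma gave 3, 1, 4 and 0 of the genes in this order. The methods' t-test was counted only with the fold limit added, and so called 0 in each. Slc2a1 gave 0.51 ± 0.17 at 15 min in ES cells (adjusted p = 0.274), Pfkl 0.41 ± 0.15 (adjusted p = 0.347) and Gpi1 0.33 ± 0.15 (adjusted p = 0.517). Ldha gave 0.55 ± 0.27 (adjusted p = 0.575) with its bright probe and 0.65 ± 0.20 (adjusted p = 0.234) with the other. The 3 ESRE arrays of each of these 4 genes lay above the 3 ES arrays, so that 4 of 7 genes did not overlap, where 35.0% of all probes did not.

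At 4 h in ES cells Pfkl gave 0.42 ± 0.15 (adjusted p = 0.099), and 2 of 7 genes did not overlap, Pfkl higher and Hk1 lower, against 34.1% of all probes. In ED cells at 4 h the differences of the 9 genes tested were between -0.40 and 0.22, and 3 of 7 genes did not overlap (Pfkl and Ldha lower, Pfkp higher), against 44.6%. With outlier spots kept, Hk2 was lower at 4 h without overlap in both cell types. It ran from 4.02 to 4.31 in ES and 3.51 to 3.90 in ESRL, and from 2.63 to 2.75 in ED and 2.16 to 2.26 in EDRL. Pgk1 was lower without overlap in ESRL only, and Pkm overlapped in both cell types. The share of all probes with outlier spots kept was not counted. At 15 min in ED cells 0 of 4 genes were without overlap, against 25.4%. There Hk1 gave 1.45 ± 0.50 (adjusted p = 0.084), Pfkp 0.84 ± 0.26 (adjusted p = 0.0595), Aldoa 0.81 ± 0.30 (adjusted p = 0.102) and Ldha 0.71 ± 0.27 (adjusted p = 0.108). Without the dim EDRE arrays the same values were -0.22, 0.06, -0.15 and -0.07. When replicate 1 of EDRE was left out instead, which leaves the dim arrays alone, all 4 were called higher, by 2.28, 1.22, 1.30 and 1.10. Hk2 with outlier spots kept gave -0.73 ± 0.26 at 15 min in ED cells (adjusted p = 0.0699), and -0.02 ± 0.20 (adjusted p = 0.981) without the dim arrays.

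**Figure D5:**
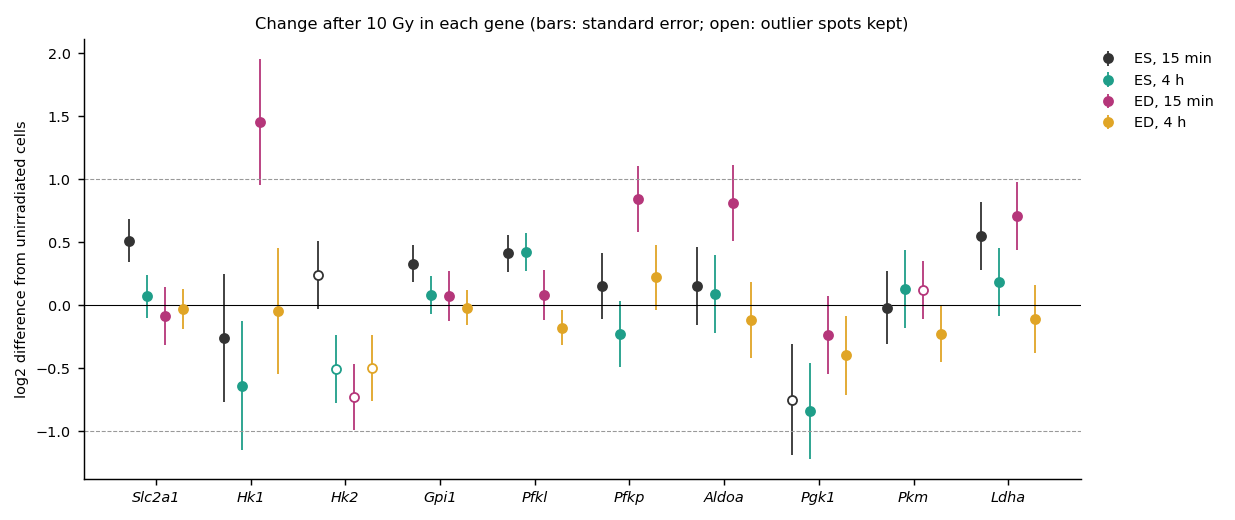
Log2 difference of irradiated from unirradiated cells (y axis) in each gene (x axis) for ES and ED cells at 15 min and 4 h after 10 Gy, with bars of 1 SE and open points where outlier spots were kept. Hk1 in ED cells at 15 min lies at 1.45, and none of the 10 genes passed both limits.

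Whether the response to IR differed between the cell types was tested directly, as the change in ES cells minus the change in ED cells. At 15 min 0 of 7 genes were called, where 1.98% of all probes were, and at 4 h 0 of 9, where 1.07% were. At an unadjusted p under 0.05 limma gave 1 gene at each time. The gene at 15 min was Hk1, at -1.71 ± 0.72 (unadjusted p = 0.0317, adjusted p = 0.216), and without the dim EDRE arrays it gave -0.04 ± 0.29 (adjusted p = 0.971). Pfkp gave -0.69 ± 0.37 (adjusted p = 0.331) and Aldoa -0.67 ± 0.43 (adjusted p = 0.422), and 0.08 and 0.30 without these arrays. The values of Slc2a1 and Pfkl were 0.60 ± 0.30 (adjusted p = 0.297) and 0.32 ± 0.26 (adjusted p = 0.533), those of Gpi1 and Ldha 0.25 and -0.16. At 4 h the gene was Pfkl, at 0.60 ± 0.21 (unadjusted p = 0.0149, adjusted p = 0.205), while Slc2a1 gave 0.09 ± 0.24 (adjusted p = 0.895) and Hk1 -0.58 ± 0.72 (adjusted p = 0.746).

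In the other lists few genes were called after IR. In ESRL against ES 4 of 17 other glycolytic enzymes were lower, among them Hk3, which was not well above background in ESRL and was at least 1.63-fold lower (adjusted p = 0.0301) and Pklr (-1.12 ± 0.26). Of 12 HIF targets Egln3, an oxygen sensor, was lower (-1.09 ± 0.27, adjusted p = 0.0217). In EDRE against ED 2 of 16 glycolytic enzymes were lower: the neuronal enolase Eno2 (-2.21 ± 0.28, adjusted p = 0.0289, with 1 usable EDRE array), which gave -0.64 with outlier spots kept (adjusted p = 0.314), and Hkdc1 (-1.21 ± 0.21, with 1 of 3 EDRE arrays well above background), which gave -0.89 (adjusted p = 0.135) without the dim arrays. Slc16a7, a lactate carrier, was higher in EDRE against ED (1.34 ± 0.37, adjusted p = 0.0434), and gave 0.54 (adjusted p = 0.668) without the dim arrays. It also stood higher in ESRE, at 0.68, 0.67 and 0.57, than in ES, at -0.98, -1.11 and -0.67, without overlap. In ESRL it read 0.02, 0.31 and -0.74, which overlapped with ES. Of 10 carriers 0 were called in ESRE or in ESRL against ES, Slc16a7 included. The paper lists Slc16a7 among the mRNAs altered in stem cells at both times after radiation. Its figure counts changes over 2-fold, a limit unlike the calls used here. The overlap of ESRL with ES does not bear out the later time. Slc2a9, a urate and hexose carrier, was higher in EDRL against ED (1.64 ± 0.31, adjusted p = 0.00818). With scan time as a random block none of these calls held.

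The 10 genes did not share 1 profile over the arrays. With each gene centered and outlier spots kept, the root mean square difference of a gene from their mean profile over the 18 arrays was 0.185 for Gpi1, 0.255 for Pkm and 0.269 for Aldoa, and 0.747 for Slc2a1, 0.866 for Hk2 and 1.04 for Hk1. Among 10503 other genes, the 5 nearest to the mean profile were Fbxo38 (0.114), Commd10 (0.115), Eif4e (0.134), H3c14 (0.144) and H3c6 (0.145). Eif4e encodes the cap-binding translation factor, and the last 2 are histone genes with near-identical copies that a probe may not separate. These 5 genes differed by -0.48 to -0.27 in ED against ES. The profile includes the dim replicates 2 and 3 of EDRE, where it read 0.51 and 0.1 against -0.32 in replicate 1. Nearness was not computed without these arrays.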

How the data were processed

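Expression was measured on 18 Agilent one-color mouse arrays, 3 per group. The deposited scanner files hold spot intensity processed by the authors with Agilent Feature Extraction (version 9.1 per the submitters' processing notes, 10.7.3.1 per the file headers). The authors' deposited matrix of 30133 probes holds log2 values from the same arrays, each column being the log2 processed signal, floored at 5, minus a constant of that array (column medians 0.572 to 0.72; how the constant was set is not given in the sources used here), and served as an alternative.

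An array held 39448 spots. Those marked as outliers were left out, as were 1417 controls and 200 further negative controls, and the spots of a probe were averaged. The processed intensity was taken to log2 and the 75th percentile of the array was subtracted. Of 37246 probes 22201 were named through RefSeq. A linear model of 6 group means was fitted with limma (version 3.58.1, R 4.3.3; tables with Python 3.11.15 and pandas 2.3.3), after a test on simulated data. A probe was tested where it was well above background on all 3 arrays of a group compared, and p-values were adjusted over all probes tested. Calls needed an adjusted p under 0.05 and a log2 difference over 1. The number of arrays limits the precision, since arrays give no counts.

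The members, the lists of related genes and the markers were chosen with earlier results of these data known. From each list the text names the genes with the largest differences among those called, a few fixed genes (Slc2a3, Slc16a3, Gapdh, Eno1, Tpi1, Pgam1, Pfkm, Ldhb, Pdk1, Pfkfb3, Hif1a and Myc), and further called genes chosen after their values were seen. A few called genes of the lists are counted but not reported here by name. Alternatives were other scalings, normexp background correction (median signals, offset 50), other filters, scan time as a random block (correlation 0.81), a replicate block, the methods' t-test and leaving out arrays. A pairing by replicate number was checked and the numbers did not pair the samples.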

Additional observations from a re-analysis of the deposited data

Results flagged for a closer look

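In 2 genes of the lists around glycolysis the change 15 min after IR differed between the cell types, by a test of the difference itself (change in ES cells minus change in ED cells). They were 1 of 17 genes of flux and pyruvate entry and 1 of 9 transcriptional regulators tested, and no gene of the other lists was called. Of all probes 1.98% were called, so so few calls do not set these lists apart. Pdhb, a pyruvate dehydrogenase subunit, gave 2.95 ± 0.68 (SE, adjusted p = 0.0438). It read 1.50, 1.67 and 1.85 in ES, 2.55, 2.82 and 2.90 in ESRE, and 1.44, 1.49 and 1.65 in ED. Its EDRE arrays read 1.36, -1.11 and -1.27, the last 2 being the dim ones, and without these the value was 1.25 (adjusted p = 0.0853). Esrrb gave 1.46 ± 0.27 (adjusted p = 0.017), and 1.17 (adjusted p = 0.0287) without the dim arrays.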

How the results depend on the processing

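Of 2808 values of the 10 genes under alternatives, 2555 kept their direction and their side of the limits, 185 had the other sign and passed the limits in neither setting, 44 newly passed them and 23 no longer did. The difference of Gpi1 in EDRE against ED, 0.07 as reported, was called with the other sign, at -2.97, with the mean of all its probes, and was -0.02 to 0.72 under the other alternatives. That mean held only the second, dimmer probe on EDRE replicates 2 and 3, where the bright probe had no usable spot. In ED, where both probes entered, they had means of 5.38 and -2.27. In ED against ES 2 genes were called. Both were lower. The count was 1 with arrays set to the median (with or without outlier spots) and with the deposited matrix, where the gene was Hk1, which was higher, and neither Slc2a1 nor Pfkl was called. It was also 1 with scan time as a random block (with or without outlier spots), where the gene was Slc2a1. With outlier spots kept 3 were lower. The count was 4 with outlier spots kept and quantile normalization, 3 of them lower and Hk1 higher. Leaving out single arrays gave 1 to 2. In EDRE against ESRE 3 were called. The count was 7 with the deposited matrix and with outlier spots kept and the median, 4 of them higher, and 5 with outlier spots kept, with these and quantile normalization, and with no limit on the fold change. Leaving out single arrays gave 2 to 3. In EDRL against ESRL 2 were called. Slc2a1 and Pfkl were called in all 37 alternatives, and Hk1 was called in 12, among them the median, the deposited matrix and the scan-time block. With outlier spots kept 3 were lower. The count was 4 with outlier spots kept and either quantile normalization or the scan-time block, and with no limit on the fold change. Leaving out single arrays gave 2 to 3. In EDRE against ED 0 were called, 1 with the median, the deposited matrix, the mean of all probes, or outlier spots kept with quantile normalization or the median, and 2 with quantile normalization. Leaving out single arrays gave 0 to 4, the 4 without replicate 1 of EDRE. For the difference in response at 15 min the count was 0, and 0 to 3 when single arrays were left out, the 3 without replicate 1 of EDRE. In the other comparisons of IR it was 0 under the alternatives run. Not every alternative that moved a count of the cell type comparisons is listed here. The cause of these differences was not tested. The 4 alternatives that combine kept outlier spots with another choice were added after seeing the data.

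The replicate numbers did not pair the samples (correlations of deviations from -0.434 to 0.304). With the replicate block 2, 3 and 2 genes were called in the 3 comparisons of cell types, as without it. Signal over background did not limit the 10 genes, while outlier marks limited Hk2, Pgk1 and Pkm.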
